A study of Rattus norvegicus with 12 samples.

Results

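The nitric oxide, cGMP and phosphodiesterase pathway was followed in smooth muscle cells through 10 genes, taken by name out of the 33294 genes of the count table. They were Gucy1a1 and Gucy1b1 (the subunits of soluble guanylyl cyclase), Npr1, Npr2 and Npr3 (natriuretic peptide receptors), Prkg1 (a cGMP-dependent protein kinase) and Pde1a, Pde1c, Pde3a and Pde5a (phosphodiesterases). The rule that takes them uses gene names and no measured value, though the list itself was drawn up with earlier results of these data known. All 10 passed the filter on low counts in every comparison. The RNA was poly(A) RNA of rat PAC1 cells, a single line of pulmonary artery smooth muscle cells, sequenced as 12 libraries in 4 groups of 3. D1 was PAC1-D, the more differentiated culture, and P was PAC1-P, the more proliferative culture that was split more often and more thinly, and both received control siRNA. RBPMS KD1 was PAC1-D given siRNA against Rbpms, and MBNL KD was PAC1-D given siRNAs against Mbnl1 and Mbnl2 together, so that the effects of the pair cannot be told apart. The labels state 90 pmol of siRNA, 200000 cells per well, a second dose after 24 h and collection 48 h later, while the study's methods give other cell numbers and times, so the exposure was not settled here.

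Nitric oxide binds soluble guanylyl cyclase, a dimer of an alpha and a beta subunit, and the enzyme then turns GTP into cGMP. Natriuretic peptides raise cGMP by another route, through membrane receptors that carry a cyclase domain of their own. In vascular smooth muscle cGMP acts through protein kinase G to lower calcium and relax the cell, and phosphodiesterases end the signal by hydrolysing cGMP, cAMP or both.

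Total counts per library lay between 86972422 and 90771289 except in MBNL KD replicate 3, which had 80842635 and stood apart from its replicates (chi-square per degree of freedom 12.8 with each, against 3.68 between the other two and 3.72 to 7.70 within the other groups). Levels are given as CPM, counts per 1000000 counts of a library after scaling by its TMM factor. They are not divided by transcript length, so a level was compared between groups and never between genes. The targeted genes were low where the labels say so, with Rbpms in RBPMS KD1 at 25.0% of its mean in D1 and Mbnl1 and Mbnl2 in MBNL KD at 23.7% and 29.5%. In P, which received control siRNA, Rbpms lay at 6.30% of D1. The summed level of 10 smooth muscle markers was 10107 to 10623 CPM in D1 and 235 to 250 in P, with MBNL KD (8007 to 8135) and RBPMS KD1 (5014 to 5196) in between, and no marker of this list was at 0. Acta2 (mean 5041 CPM) and Tagln (3249 CPM) made up most of this sum in D1. Of the 10 markers, 9 were called lower and Des higher in P, where 11.2% and 16.4% of all genes were, 5 were called lower in RBPMS KD1 (Des lay at 156% of D1 there, not called), where 4.68% of all genes were called, and Des was called higher in MBNL KD, where 10.2% of all genes were called. The call of Acta2 in RBPMS KD1 was lost with limma on the authors' normalised values (log2 fold change -0.90). In MBNL KD all 10 had an adjusted p under 0.05, as had 67.5% of all genes, and the median log2 fold change was -0.41, with 7 between 62.6% (Smtn) and 83.9% (Acta2) of D1, and Myh11 at 144% and Cnn1 at 108%.

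Markers of other cell types moved unevenly within their lists. The sum of 5 pericyte markers was 811 to 861 CPM in D1 and 806 to 852 in RBPMS KD1. It was 661 to 672 in MBNL KD and 278 to 299 in P. In P 2 of 3 tested were called lower, among them Notch3 at 5.82% of D1, where 11.2% of all genes were called lower. The lower sum in MBNL KD came from Notch3 (51.2% of D1), while Cspg4 lay at 127% and Abcc9 at 187%, and the median log2 fold change of the 3 tested was 0.35. The sum of 6 fibroblast markers was 151 to 162 CPM in D1 and 135 to 141 in RBPMS KD1. In MBNL KD it was 96.2 to 103, and 2 of 6 were called lower, where 10.2% of all genes were called. In P it was 195 to 204, and edgeR called none, where 27.6% of all genes were called. There 4 had an adjusted p under 0.05, as had 77.9% of all genes. The lower sum in RBPMS KD1 came mainly from Lum (76.8% of D1), whereas Dcn (163%), Pdgfra (188%), Dpt (159%) and Pi16 (114%) lay above D1. The median log2 fold change of the list there was 0.43, with no call, where 4.68% of all genes were called. Of the fibroblast calls in MBNL KD, that of Dpt was lost with limma on the authors' normalised values (-0.81). The sum of 7 leukocyte markers lay between 0.943 and 1.71 CPM in all libraries. Of these, 1 of 2 tested was called higher in MBNL KD (Csf1r, 19 to 26 counts in D1 and 52 to 62 in MBNL KD), where 10.2% of all genes were called. In P it was 1 of 3 (Cd3e, 2 to 8 counts in D1 and 16 to 22 in P), where 16.4% of all genes were called higher. Both calls were lost with limma on the authors' normalised values (0.57 and 0.30), in which no value lies under 35. Such a floor shrinks fold changes of genes with few counts, so a call lost there could come from the floor alone. The part of these differences in marker level in the results below was not tested. In a bulk library, fewer cells of a type and less RNA per cell cannot be told apart.

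The largest differences lay between the culture states. In P against D1, 6 of the 10 genes fell by more than 2-fold (both cyclase subunits, Prkg1, Npr2, Pde3a and Pde1a) and 2 rose by more than 2-fold (Npr1 and Pde1c). Npr3 was 1.80-fold lower and Pde5a 1.57-fold higher, and both passed edgeR's quasi-likelihood test at the adjusted p alone, without reaching the fold threshold. Called here means an adjusted p under 0.05 together with a fold above 2. Of all genes tested in P against D1, 27.6% were called, 16.4% as higher and 11.2% as lower, so the 8 of 10 stood above that share, in a list that was assembled with earlier results known. Among all genes called, 59.4% were higher in P with TMM scaling and 46.1% with quantile normalization, and none of the 8 calls changed direction with the scaling. All 10 genes had an adjusted p under 0.05, against 77.9% of all genes, and none of the 10 had overlapping libraries, against 79.1% of all genes without overlap. The median log2 fold change was -1.35 over the 10 and 0.02 over all genes tested.

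In the knockdowns no gene of the 10 moved by more than 2-fold against D1 in the main edgeR fit. Without D1 replicate 1, Npr1 in MBNL KD had a log2 fold change of 1.34 (edgeR adjusted p = 0.0049). In RBPMS KD1 against D1 no gene of the 10 was called by edgeR, DESeq2 or limma, where edgeR called 4.68% of all genes. An adjusted p under 0.05 was reached by 8 of the 10 (8 also at an unadjusted p under 0.05), against 59.1% of all genes, and 8 had no overlap between the groups, against 63.4%. MBNL KD against D1 likewise gave no call among the 10 by edgeR, DESeq2 or limma, where edgeR called 10.2% of all genes. Here 5 of the 10 had an adjusted p under 0.05 (6 at an unadjusted p under 0.05), against 67.5% of all genes, and 6 showed no overlap, against 70.3%. With 10 genes, these shares were not read as differing from those of all genes. Median log2 fold changes of the 10 were -0.14 in RBPMS KD1 and 0.13 in MBNL KD. The comparisons with D1 share their control libraries, so their values are given side by side, and the groups were also compared with each other directly.

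**Figure D1:**
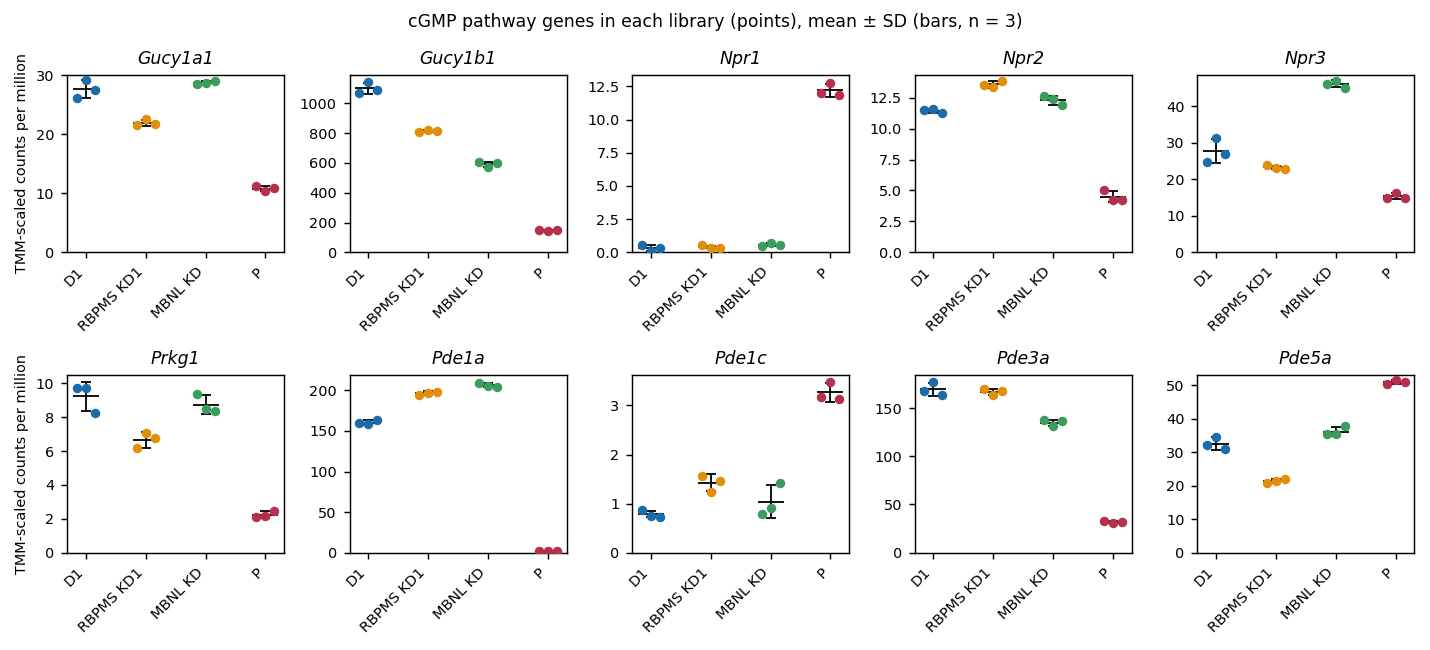
Level of each of the 10 genes in every library, in TMM-scaled CPM on a linear axis that starts at 0, with 1 panel per gene, 1 point per library and bars for the mean and SD of 3 libraries. Gucy1b1 is highest in D1 and lowest in P, Npr1 and Pde1c are highest in P, Npr3 is highest in MBNL KD, and the Pde1a points of P lie near 0 at 1.36 to 1.94.

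Soluble guanylyl cyclase is the receptor for nitric oxide in smooth muscle, and both of its subunits are needed for activity. Gucy1a1, the alpha subunit, measured 26.1, 29.1 and 27.5 CPM in D1, 21.5, 22.5 and 21.7 in RBPMS KD1, 28.5, 28.7 and 28.9 in MBNL KD and 11.2, 10.4 and 10.9 in P. The P libraries lay lowest and those of RBPMS KD1 next, without overlap with D1, while MBNL KD lay inside the range of D1. Gucy1a1 fell 2.56-fold in P (log2 fold change -1.35, SE 0.052, adjusted p = 6.2e-22). In RBPMS KD1 it was 1.26-fold lower (-0.33, SE 0.046, adjusted p = 3.8e-07), and in MBNL KD the log2 fold change was 0.06 (SE 0.043, adjusted p = 0.19).

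Gucy1b1, the beta subunit that carries the haem to which nitric oxide binds, measured 1072, 1144 and 1090 CPM in D1, 809, 821 and 813 in RBPMS KD1, 604, 573 and 597 in MBNL KD and 148, 146 and 148 in P. The groups formed 4 separate steps with no overlap between any of them. Gucy1b1 fell 7.50-fold in P (log2 fold change -2.91, SE 0.027, adjusted p = 1.7e-39), to 13.4% of its mean in D1. It was 1.86-fold lower in MBNL KD (-0.89, SE 0.026, adjusted p = 1.4e-22) and 1.35-fold lower in RBPMS KD1 (-0.44, SE 0.026, adjusted p = 1.5e-14), both short of the fold threshold. Between the knockdowns it was 1.38-fold higher in RBPMS KD1 (adjusted p = 4.3e-16).

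The subunits therefore did not move by equal amounts. For each 100 counts of Gucy1b1 there were 2.44, 2.55 and 2.52 counts of Gucy1a1 in D1, 2.66, 2.74 and 2.66 in RBPMS KD1, 4.72, 5.00 and 4.85 in MBNL KD and 7.56, 7.11 and 7.34 in P. The ratio was 2.93-fold higher in P than in D1 and 1.94-fold higher in MBNL KD, and no library of those groups overlapped with D1. For RBPMS KD1 the log2 difference was 0.10, also without overlap. Each of these exact two-sided permutation tests gave p = 0.1, the smallest that 3 libraries against 3 allow, and 0.1125 after adjustment over 9 ratio tests. Such a ratio compares counts within a library and is not a ratio of molecules, since the transcripts differ in length.

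**Figure D2:**
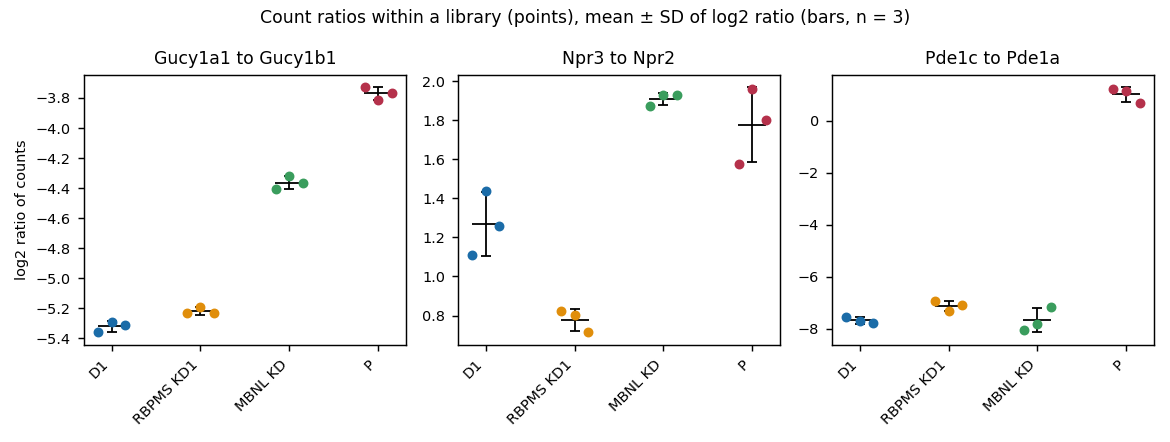
Log2 ratio of counts within each library for Gucy1a1 to Gucy1b1, Npr3 to Npr2 and Pde1c to Pde1a, 1 point per library, with bars for the mean and SD of 3 libraries. In the Gucy1a1 to Gucy1b1 panel D1 averages -5.32, MBNL KD -4.36 and P -3.77, and in the Pde1c to Pde1a panel P stands apart at 1.02 against -7.68 in D1.

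The genes of the subunits are near neighbours on chromosome 2, on the same strand, in RefSeq's GRCr8 annotation. Their 250 bases before the transcript start, both on the minus strand and written 5′ to 3′, are printed because the genes fell together in P and parted in MBNL KD. They lie at chr2:169779624-169779873 for Gucy1a1 and chr2:169696988-169697237 for Gucy1b1. Capitals mark a GC box (GGGCGG) or a CCAAT box (CCAAT), searched on both strands; read on this strand the CCAAT box of these windows is the run ATTGG.
Gucy1a1 promoter: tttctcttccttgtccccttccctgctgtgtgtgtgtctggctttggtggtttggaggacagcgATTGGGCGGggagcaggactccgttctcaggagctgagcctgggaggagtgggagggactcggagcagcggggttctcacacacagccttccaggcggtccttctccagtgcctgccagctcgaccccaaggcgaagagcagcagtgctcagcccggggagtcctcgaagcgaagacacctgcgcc
Gucy1b1 promoter: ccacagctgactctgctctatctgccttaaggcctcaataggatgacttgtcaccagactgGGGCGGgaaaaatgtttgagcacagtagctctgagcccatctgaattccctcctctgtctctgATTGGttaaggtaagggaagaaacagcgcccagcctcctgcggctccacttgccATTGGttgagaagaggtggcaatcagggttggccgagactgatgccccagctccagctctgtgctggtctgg
In the Gucy1a1 window the CCAAT box and the GC box overlap in 1 run of capitals, and the Gucy1b1 window holds 1 GC box and 2 CCAAT boxes. GC boxes were present in 30.5% and CCAAT boxes in 34% of 33469 RefSeq promoter windows of this length, so neither is rare. A CArG box, the site bound by serum response factor in many smooth muscle genes and present in 1.5% of windows, was found in none of the 9 windows that could be matched to the 10 genes. With so rare a motif, its absence from 9 windows says little, and sequence outside them was not searched. These are matches of letters and no binding was measured.

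Natriuretic peptide receptors are the membrane entry to the same second messenger. Npr1, the receptor for atrial and brain natriuretic peptides, measured 0.552, 0.116 and 0.322 CPM in D1, 0.512, 0.320 and 0.350 in RBPMS KD1, 0.448, 0.690 and 0.541 in MBNL KD and 12.03, 12.8 and 11.8 in P. Behind these levels stood 10 to 48 counts per library in D1 and 1109 to 1198 in P. The 9 libraries of PAC1-D cells overlapped with each other and all lay far below the 3 of P. Npr1 rose 36.7-fold in P (log2 fold change 5.20, SE 0.155, adjusted p = 5.1e-25). The size of the rise moved with the setting, with a log2 fold change of 4.80 without D1 replicate 2, 5.78 without D1 replicate 1 and 3.998 (15.98-fold) with limma on the authors' normalised values, and it was called in each case. In the knockdowns the log2 fold changes were 0.25 (SE 0.386, adjusted p = 0.60) for RBPMS KD1 and 0.76 (SE 0.359, adjusted p = 0.061) for MBNL KD. Those small values rested on single libraries of D1, since without D1 replicate 1 the value for MBNL KD was 1.34 (adjusted p = 0.0049) and without D1 replicate 2 the value for RBPMS KD1 was -0.15 (adjusted p = 0.76).

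A long non-coding RNA, LOC120101091, overlaps Npr1 in the GRCr8 annotation and had 0.366 CPM in P and 0.00384 in D1, and the strand setting of the counting was not stated in the sources used here, so reads where both lie could be shared. Endothelial cells are a known source of natriuretic receptor and nitric oxide synthase RNA. The summed level of 8 endothelial markers was 0.756 to 0.817 CPM in D1, 1.83 to 1.86 in RBPMS KD1, 0.934 to 1.44 in MBNL KD and 5.48 to 6.81 in P. In P against D1 16.4% of all genes were called higher, and in RBPMS KD1 against D1 4.68% were called in either direction. Of the 8 markers only 3 and 2 passed the filter on low counts there, and all of these were called higher. In RBPMS KD1 these were Tek (log2 fold change 1.32) and Vwf (1.22), and with limma on the authors' normalised values both calls (0.65 and 0.71) and that of Vwf in P (0.51) were lost. In MBNL KD the values of Tek and Vwf were 0.52 and 0.50 and neither was called. Cdh5, the endothelial cadherin, had 0 counts in every PAC1-D library and 122 to 138 in P, so it passed the filter through P alone. Tek had 23 to 24 counts in D1 and 297 to 368 in P. Emcn and Cldn5 were at 0 in P, Kdr had 0 to 4 counts there, and Pecam1 had 3 to 10. The part of these markers in the rise of Npr1 was not tested.

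The Npr1 promoter window of RefSeq, chr2:178247089-178247338 on the minus strand, is printed as that of the gene of the 10 with the largest rise in P. Capitals again mark the CCAAT box and the GC box, the latter as CCGCCC on this strand.
Npr1 promoter: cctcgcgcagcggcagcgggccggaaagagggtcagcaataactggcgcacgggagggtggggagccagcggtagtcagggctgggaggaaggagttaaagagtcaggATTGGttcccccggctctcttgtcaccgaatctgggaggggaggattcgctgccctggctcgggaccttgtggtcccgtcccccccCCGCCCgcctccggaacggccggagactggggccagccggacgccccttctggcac
It holds 1 of each, and 68.8% of its bases are G or C, against a median of 51.2% over all windows.

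Npr2, the receptor for C-type natriuretic peptide, measured 11.5, 11.6 and 11.3 CPM in D1, 13.5, 13.3 and 13.9 in RBPMS KD1, 12.6, 12.4 and 11.9 in MBNL KD and 5.03, 4.20 and 4.25 in P. P lay lowest, and all libraries of both knockdowns lay above those of D1. Npr2 fell 2.55-fold in P (log2 fold change -1.35, SE 0.075, adjusted p = 2.1e-17). In RBPMS KD1 it was 1.19-fold higher (0.25, SE 0.055, adjusted p = 0.00033), and in MBNL KD the log2 fold change of 0.11 (SE 0.057, adjusted p = 0.093) did not pass although the libraries did not overlap.

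Npr3 encodes the clearance receptor, which binds natriuretic peptides, lacks the cyclase domain and removes them from the cell surface. It measured 24.9, 31.3 and 27.0 CPM in D1, 23.8, 23.2 and 22.8 in RBPMS KD1, 46.3, 47.1 and 45.2 in MBNL KD and 14.96, 16.3 and 14.8 in P. MBNL KD stood above all other groups and P below them. In MBNL KD it was 1.67-fold higher than in D1 (log2 fold change 0.74, SE 0.051, adjusted p = 7.7e-14), the largest positive difference of the 10 genes with an adjusted p under 0.05 in that comparison. It was 1.80-fold lower in P (-0.85, SE 0.059, adjusted p = 1.1e-14) and 1.19-fold lower in RBPMS KD1 (-0.25, SE 0.056, adjusted p = 0.00036). Between the knockdowns Npr3 was 1.99-fold lower in RBPMS KD1 (-0.99, adjusted p = 5.8e-20), a step under the threshold that quantile normalization put at -1.04.

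Counts of Npr3 per count of Npr2 were 2.16, 2.71 and 2.39 in D1, 1.77, 1.74 and 1.64 in RBPMS KD1, 3.66, 3.81 and 3.81 in MBNL KD and 2.98, 3.89 and 3.49 in P. The clearance receptor was thus relatively higher in MBNL KD (1.56-fold) and P (1.42-fold) and lower in RBPMS KD1 (1.40-fold) than in D1, with no overlap in any of the 3 comparisons. All gave the smallest exact permutation p of 0.1 (two-sided, adjusted 0.1125).

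Prkg1 encodes the cGMP-dependent kinase that carries the relaxing effect of cGMP in smooth muscle. It measured 9.75, 9.74 and 8.25 CPM in D1, 6.16, 7.06 and 6.77 in RBPMS KD1, 9.39, 8.48 and 8.39 in MBNL KD and 2.11, 2.15 and 2.47 in P. The order was P, then RBPMS KD1, then D1 and MBNL KD, which overlapped. Prkg1 fell 4.12-fold in P (log2 fold change -2.04, SE 0.092, adjusted p = 7.7e-20) and was 1.39-fold lower in RBPMS KD1 (-0.47, SE 0.076, adjusted p = 4.7e-06), with -0.07 (SE 0.073, adjusted p = 0.40) in MBNL KD. Cstf2t lies within Prkg1 in the GRCr8 annotation and went the other way, with log2 fold changes of 0.43 in P, 0.29 in RBPMS KD1 and 0.23 in MBNL KD, and reads where both lie could be shared. In a direct test Prkg1 was 1.31-fold lower in RBPMS KD1 than in MBNL KD (adjusted p = 2.6e-05).

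Phosphodiesterases of the first family are stimulated by calcium and calmodulin, and Pde1a and Pde1c went in opposite directions between the culture states. Pde1a measured 160, 158 and 163 CPM in D1, 194, 197 and 198 in RBPMS KD1, 209, 206 and 204 in MBNL KD and 1.36, 1.60 and 1.94 in P. Both knockdowns lay above D1 and P lay at 1.02% of it, with 128 to 182 counts per library where D1 had 13595 to 14189. Pde1a fell 98.2-fold in P (log2 fold change -6.62, SE 0.053, adjusted p = 2.9e-41), the largest difference among the 10 genes. It was 1.23-fold higher in RBPMS KD1 (0.29, SE 0.025, adjusted p = 5.6e-11) and 1.29-fold higher in MBNL KD (0.37, SE 0.024, adjusted p = 2.5e-14), so that neither knockdown moved it in the direction of P.

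Because of the size of this fall, the 250 bases before the Pde1a start in RefSeq's GRCr8 (chr3:85431779-85432028, minus strand) are shown. No capitals occur, since none of the motifs searched was found; beside those named above these were the TATA box (TATAAA), the AP-1 site (TGANTCA), the cAMP response element (TGACGTCA) and the MCAT element (CATTCC), present in 12.9%, 6.34%, 1.59% and 12.1% of all windows.
Pde1a promoter: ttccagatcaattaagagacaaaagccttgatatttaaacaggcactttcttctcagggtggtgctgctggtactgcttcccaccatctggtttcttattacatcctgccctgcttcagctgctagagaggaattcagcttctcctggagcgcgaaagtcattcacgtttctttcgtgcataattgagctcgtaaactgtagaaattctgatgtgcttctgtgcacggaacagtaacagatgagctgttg
G and C made up 44.8% of this window.

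Pde1c, whose product hydrolyses cGMP and cAMP, measured 0.863, 0.756 and 0.736 CPM in D1, 1.57, 1.23 and 1.47 in RBPMS KD1, 0.795, 0.901 and 1.43 in MBNL KD and 3.18, 3.49 and 3.14 in P. P was highest and RBPMS KD1 lay above D1 without overlap, while MBNL KD spanned from inside D1 to inside RBPMS KD1. The rise in P was 4.16-fold (log2 fold change 2.06, SE 0.146, adjusted p = 1.8e-14), and it was 2.38-fold (1.25) with limma on the authors' normalised values, where it was also called. In RBPMS KD1 the gene was 1.81-fold higher (0.86, SE 0.187, adjusted p = 0.00024), or 0.54 with limma on the authors' normalised values, and in MBNL KD the value was 0.41 (SE 0.222, adjusted p = 0.11), or 0.12 without MBNL KD replicate 3 (adjusted p = 0.69).

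For each 100 counts of Pde1a there were 0.539, 0.478 and 0.451 counts of Pde1c in D1, 0.810, 0.626 and 0.740 in RBPMS KD1, 0.380, 0.438 and 0.698 in MBNL KD and 234, 218 and 162 in P. The ratio was 414-fold higher in P and 1.48-fold higher in RBPMS KD1 than in D1, without overlap in either case (exact two-sided permutation p = 0.1, adjusted 0.1125). MBNL KD overlapped with D1 (log2 difference 0.0012, exact permutation p = 1), and without MBNL KD replicate 3 the difference was -0.26.

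Pde3a, a phosphodiesterase that hydrolyses cAMP and is inhibited by cGMP, measured 168, 177 and 164 CPM in D1, 170, 163 and 168 in RBPMS KD1, 137, 131 and 136 in MBNL KD and 32.8, 30.7 and 31.8 in P. RBPMS KD1 overlapped with D1, MBNL KD lay below both and P lowest. It fell 5.35-fold in P (log2 fold change -2.42, SE 0.033, adjusted p = 6.2e-35). In MBNL KD it was 1.25-fold lower (-0.32, SE 0.027, adjusted p = 5.2e-12), and in RBPMS KD1 the value was -0.02 (SE 0.029, adjusted p = 0.52), a sign that turned to 0.01 under quantile normalization.

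Pde5a, the cGMP-specific enzyme blocked by sildenafil, measured 32.1, 34.5 and 30.8 CPM in D1, 20.8, 21.2 and 21.8 in RBPMS KD1, 35.4, 35.3 and 37.6 in MBNL KD and 50.2, 51.4 and 51.0 in P. The groups did not overlap, with RBPMS KD1 lowest and P highest. RBPMS KD1 and P thus lay on opposite sides of D1, at 1.52-fold lower (log2 fold change -0.61, SE 0.045, adjusted p = 2.5e-12) and 1.57-fold higher (0.65, SE 0.038, adjusted p = 1.3e-16). MBNL KD was 1.12-fold higher than D1 (0.16, SE 0.042, adjusted p = 0.0015). Tested directly, Pde5a was 2.35-fold higher in P than in RBPMS KD1 (log2 fold change 1.23, SE 0.039, adjusted p = 1.1e-24), and RBPMS KD1 lay 1.69-fold under MBNL KD (adjusted p = 6.7e-16).

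**Figure D3:**
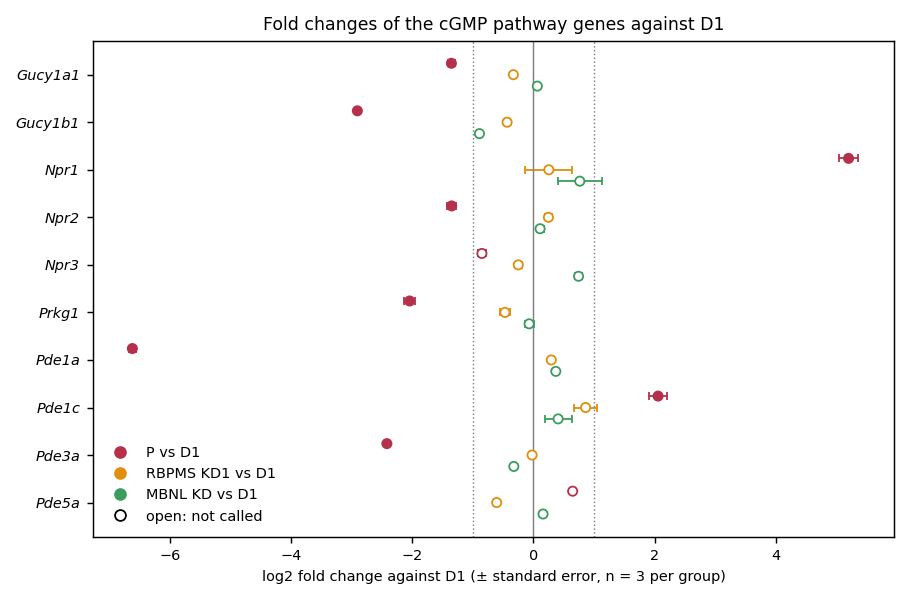
Log2 fold change of the 10 genes against D1 with its standard error, for P, RBPMS KD1 and MBNL KD with 3 libraries per group; filled points were called and dotted lines mark a 2-fold difference. Points of P spread from -6.62 (Pde1a) to 5.20 (Npr1), and all points of both knockdowns are open and lie between -0.89 (Gucy1b1) and 0.86 (Pde1c).

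The remaining pairs of groups were compared directly. In P against RBPMS KD1, 9 of the 10 genes were called, 3 higher (Npr1, Pde1c and Pde5a) and 6 lower, against 29.1% of all genes. The call of Pde1c there (log2 fold change 1.17) was lost with quantile normalization (0.85) and with limma on the authors' normalised values (0.71). In P against MBNL KD, 9 were called, 2 higher (Npr1 and Pde1c) and 7 lower, with Npr3 among the lower at 3.08-fold, against 32.9% of all genes. RBPMS KD1 against MBNL KD gave no call among the 10 by edgeR or DESeq2 and 1 (Npr3) by limma on the authors' normalised values, where edgeR called 11.9% of all genes. An adjusted p under 0.05 was reached by 9 of the 10 (9 at an unadjusted p under 0.05), against 69.5% of all genes. Besides those given above, Gucy1a1 was 1.31-fold lower in RBPMS KD1 than in MBNL KD, Pde3a 1.24-fold higher, Pde1c 1.37-fold higher, Npr2 1.10-fold higher and Pde1a 1.05-fold lower.

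When the 4 groups were ranked by mean level, P was lowest for 7 genes and highest for Npr1, Pde1c and Pde5a. Neighbours in rank whose difference did not pass (adjusted p of 0.05 or above) were D1 and MBNL KD for Gucy1a1, Prkg1, Npr2 and Pde1c, D1 and RBPMS KD1 for Pde3a, and the 3 groups of PAC1-D cells for Npr1. For Gucy1b1, Npr3, Pde1a and Pde5a every neighbouring pair differed with an adjusted p under 0.05.

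Beyond the 10, a list of 44 other genes of the pathway was read out, of which 10 were too low to be tested in any comparison with D1. Nos1, Gucy1a2, Nppa, Pde9a, Pde11a and Pde7b had at most 3 counts in every library. In P against D1, 12 of 31 tested genes were called higher and 13 lower, where 16.4% and 11.2% of all genes were, with a median log2 fold change of -0.20, which was the same with the 2 genes at the floor of 3 counts set to their bounds. In RBPMS KD1 1 of 28 was called higher and 2 lower (median -0.05), where 4.68% of all genes were called, and in MBNL KD 3 of 29 were higher and 1 lower (median 0.03), where 10.2% of all genes were called. With limma on the authors' values 1 gene of the list was called in each knockdown, and with 1 fit of 12 libraries 7 were called in MBNL KD. The medians over all genes tested were 0.02, 0.00431 and 0.00991.

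Nitric oxide supply, from synthases, their cofactor and the enzymes that limit their substrate or inhibitor, gave 4 genes higher and 3 lower of 7 tested in P, where 16.4% and 11.2% of all genes were called so. Gch1, which makes the synthase cofactor tetrahydrobiopterin, had 4 to 6 counts per library in D1 and 149 to 175 in P (log2 fold change 4.81, adjusted p = 4.1e-16). Nos3, the endothelial synthase, had 6, 5 and 0 counts in D1 and 42, 48 and 33 in P (adjusted p = 4.6e-07). Nos2, the inducible synthase, had 4, 2 and 0 in D1 and 16, 18 and 20 in P (adjusted p = 7.5e-05). All 3 were called but remained at low levels, and the endothelial markers given above moved with them, a link that was not tested. Nos3 lost its call with limma on the authors' normalised values (0.78), and Nos2 was not in the fit. The genes of this group with the most counts in D1, Ddah1 and Ddah2, were both called lower in P. They lay there at 45.9% and 19.9% of D1 and kept their calls with limma (-1.07 and -2.36). In each knockdown only 4 of the 8 genes of this group could be tested, without Nos1, Nos2, Nos3 and Gch1, and edgeR called none of them, where 4.68% (RBPMS KD1) and 10.2% (MBNL KD) of all genes were called; 3 of the 4 had an unadjusted p under 0.05 in each.

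Most of the 8 ligands and other cyclases were too low to test, and 1 of them could be tested in P and 2 in MBNL KD. Mme, the peptidase neprilysin that degrades natriuretic peptides, rose from 7.70, 6.67 and 8.16 CPM in D1 to 45.8, 39.6 and 44.1 in P (log2 fold change 2.52, adjusted p = 3.6e-28). Nppb, the gene of brain natriuretic peptide, had 7, 8 and 2 counts in D1 and 38, 42 and 32 in MBNL KD (log2 fold change 2.69, adjusted p = 3.9e-06), and was called there at a low level. The call of Nppb was lost with limma on the authors' normalised values (0.82).

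Among kinases and substrates of the pathway, 8 of 10 tested genes were called lower and 1 higher in P, where 11.2% and 16.4% of all genes were. Irag1, the substrate through which protein kinase G holds back calcium release, had 282, 301 and 281 CPM in D1, 135, 133 and 134 in RBPMS KD1, 273, 273 and 283 in MBNL KD and 2.44, 1.95 and 2.24 in P. It fell 130-fold in P (log2 fold change -7.02, SE 0.048, adjusted p = 4.2e-43) and 2.15-fold in RBPMS KD1 (-1.10, SE 0.028, adjusted p = 8.1e-23). Kcnmb1, the beta subunit of the calcium-activated potassium channel, had 3.57, 3.03 and 3.70 CPM in D1, 0, 2 and 0 counts in P, where no fold is given, and fell 2.33-fold in RBPMS KD1 (-1.22, SE 0.126, adjusted p = 1.9e-09). With limma on the authors' normalised values Kcnmb1 kept its call in RBPMS KD1 (-1.09), while Irag1 fell just short of the fold threshold there (log2 fold change -0.997).

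Pln, the inhibitor of the calcium pump of the sarcoplasmic reticulum, had 42, 39 and 37 counts in D1, 103, 111 and 134 in RBPMS KD1, 112, 127 and 116 in MBNL KD and 4, 5 and 2 in P. It rose in both knockdowns (log2 fold change 1.54, adjusted p = 4.8e-07, and 1.59, adjusted p = 7.5e-08) and fell in P (adjusted p = 2.6e-08). Prkg2, the second cGMP-dependent kinase gene, had 18, 16 and 16 counts in D1 and 44, 41 and 54 in MBNL KD (1.48, adjusted p = 0.00025). With limma on the authors' normalised values these knockdown calls were lost, at 0.94 in both knockdowns for Pln and 0.58 for Prkg2 in MBNL KD, each with an adjusted p under 0.05.

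Other cGMP phosphodiesterases and cGMP exporters gave 3 genes higher and 1 lower of 6 tested in P, where 16.4% and 11.2% of all genes were called so, and, of 5 tested in each, no call by edgeR in RBPMS KD1 or MBNL KD, where 4.68% and 10.2% of all genes were called (2 and 3 had an unadjusted p under 0.05). Pde2a, which is stimulated by cGMP, had 2, 2 and 0 counts in D1 and 88, 88 and 68 in P (adjusted p = 2e-12). Pde10a had 0, 0 and 4 counts in D1 and 14, 12 and 14 in P (adjusted p = 0.00038) and was not in the limma fit. Abcc4, an exporter with far more counts, was also called higher, at a mean of 163 CPM in P against 55.3 in D1. Pde3b, the close relative of Pde3a, fell with it, from 77.9, 76.1 and 74.9 CPM in D1 to 19.7, 16.96 and 19.7 in P (log2 fold change -2.02, adjusted p = 1.3e-29).

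Phosphodiesterases specific for cAMP gave 3 genes higher and 1 lower of 7 tested in P, where 16.4% and 11.2% of all genes were called so. Pde4a had 0.667, 1.03 and 1.10 CPM in D1 and 20.1, 21.3 and 20.7 in P (log2 fold change 4.47, adjusted p = 2.4e-29). Pde8b rose by 2.59 on the log2 scale (adjusted p = 1.4e-07) and Pde4c fell by 1.66 on that scale (adjusted p = 5.8e-07). In MBNL KD Pde4b was the called gene of this group, at 0.772, 0.868 and 0.442 CPM against 2.07, 2.08 and 2.33 in D1 (-1.62, adjusted p = 7.2e-09), while it was called higher in P. With limma on the authors' normalised values the calls of Pde8b (0.86) and Pde4b (0.62) in P were lost, and that of Pde4b in MBNL KD was kept (-1.41).

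**Figure D4:**
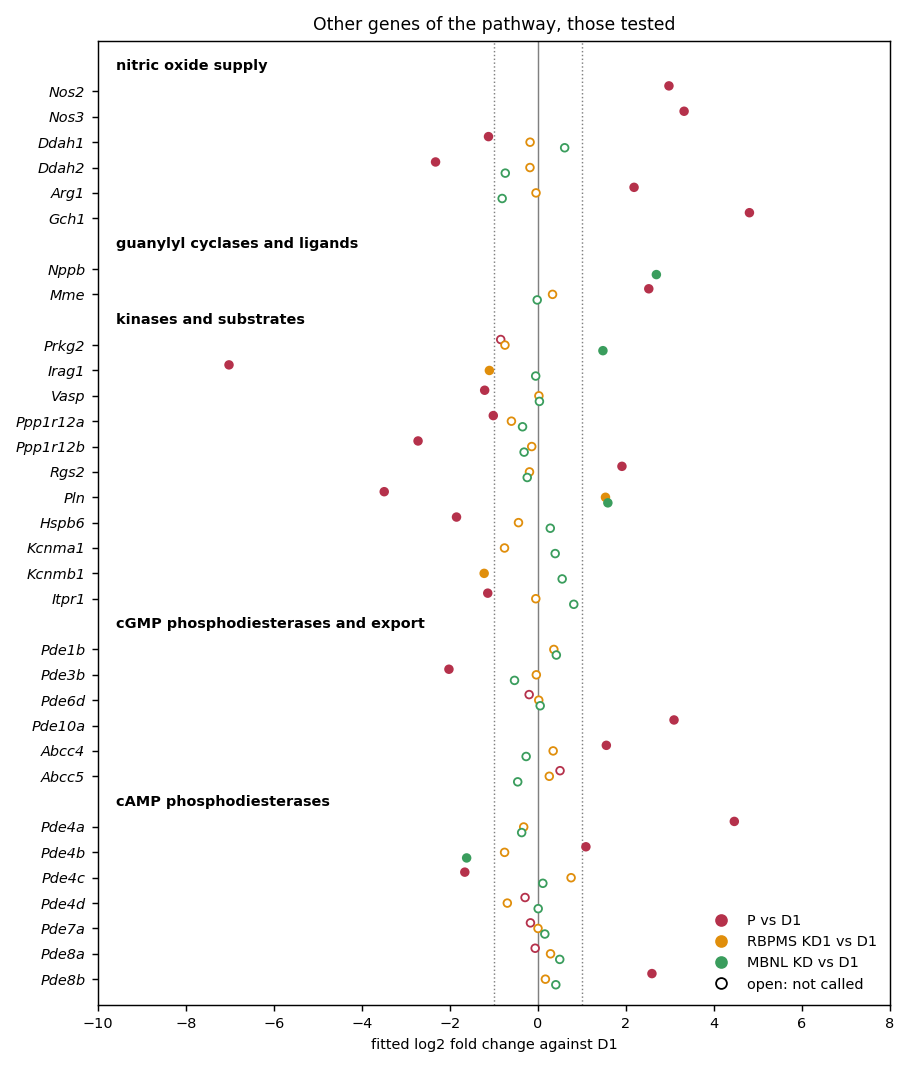
Fitted log2 fold change against D1 of the other pathway genes that were tested, by role, for P, RBPMS KD1 and MBNL KD; filled points were called, dotted lines mark a 2-fold difference, and no point is drawn where every library of a group had at most 3 counts (Kcnmb1 and Pde2a in P against D1); 1 tested gene is not drawn. The kinase and substrate rows hold most of the points of P left of -1, reaching -7.02 for Irag1, and few points of the knockdowns are filled.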

How the data were processed

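Poly(A) RNA libraries of 12 PAC1 samples were analysed, grouped by their labels into D1, P, RBPMS KD1 and MBNL KD (n = 3 each); the study's methods state independent biological replicates. The authors deposited counts per gene: reads were subsampled with seqtk to an equal number per sample, aligned with STAR 2.7.11b to mRatBN7.2 and counted with featureCounts, without normalization. The submitters' processing notes also name FastQC 0.11.9, MultiQC 1.14, edgeR 3.40.2 and DESeq2 1.38.3. How strand and read mates were treated in counting is not given in the sources used here, and the library kit is directional per the labels. Among counts under 20, even values were 2.39 to 2.73 times as frequent as odd ones, so small counts are not independent molecules and no counting interval is given. A floor of 3 counts corresponds to 0.0331 to 0.0371 CPM and covers counting error only. The second table holds the signal values that the authors made from the counts with noisyR noise removal followed by quantile normalization (19812 genes, smallest value 35, all 10 genes present), and was used only as an alternative. Its smallest value shrinks fold changes of genes with few counts. For such genes a call lost with limma on these values does not by itself speak to the difference in counts.

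Tests ran in R 4.3.3 with edgeR 4.0.16: filterByExpr on the 6 libraries compared, TMM, quasi-likelihood F test and Benjamini-Hochberg adjustment over all genes tested. SE was taken as the size of the log2 fold change over the root of its F. Group means and SDs are of TMM-scaled CPM over all 12 libraries. Count ratios per library were compared by exact two-sided permutation tests (SciPy 1.17.1). On simulated counts edgeR recovered 200 of 200 changed genes in P, RBPMS KD1 and MBNL KD against D1 (16659, 15875 and 16007 genes tested), with 0, 1 and 0 other genes called. The changed genes there were well counted and changed by more than the fold threshold. Every gene had the same small dispersion, and even counts were not favoured. Calls on few counts were therefore not covered by this simulation. The 10 genes, the pathway list and the marker lists were chosen with earlier results of these data known. All 10 genes are described. From the pathway list the text names the called genes of each role and comparison with D1, at most the 3 with the largest absolute log2 fold change, and counts the rest. Ddah1, Ddah2 and Abcc4 in P are given beyond that limit, after their values were seen, because they rest on more counts. Genes of like pattern were to be named for members called in a knockdown, of which there were 0. Alternatives were DESeq2 1.42.0 (size factors and test), quantile normalization, no filter, no fold threshold, limma 3.58.1 on log2 of the authors' values, 1 fit of 12 libraries, the replicate number as a block and leaving out each library. Promoter windows and gene neighbours came from RefSeq tables of another assembly, GRCr8 (9 of 10 genes matched a window), and no coordinates were converted. The values of 1 gene of the pathway list, which is included in the counts of that list, are not reported here.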

Additional observations from a re-analysis of the deposited data

How the results depend on the processing

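Of 780 recomputed fold changes of the 10 genes, 771 kept their direction and their side of the thresholds, 2 became weaker, 3 stronger and 4 turned; the causes were not tested. Pde3a in RBPMS KD1 against D1 turned to 0.0115 with quantile normalization and 0.0119 with limma on the authors' values, and ranged from -0.048 to 0.0077 when libraries were left out, none past the threshold. Npr1 there ranged from -0.15, without D1 replicate 2, to 0.84. Pde1c in P against RBPMS KD1 lost its call at 0.85 with quantile normalization and 0.71 with limma, where Npr3 in RBPMS KD1 against MBNL KD gained one (-1.04 in both, 1 gene of the 10 called). The log2 difference of the Pde1c to Pde1a ratio between MBNL KD and D1 was -0.32 with the authors' values and ranged from -0.26 to 0.18 when libraries were left out. Leaving out single libraries gave 0 to 1 of the 10 called in MBNL KD against D1, the 1 being Npr1 without D1 replicate 1.

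Without the fold threshold, genes called were 13103 in P, 9393 in RBPMS KD1 and 10833 in MBNL KD against D1, 11202 in RBPMS KD1 against MBNL KD, and 13423 and 13833 in P against RBPMS KD1 and MBNL KD. Of the 10, 8 were then called in RBPMS KD1 and 5 in MBNL KD against D1 and 9 between the knockdowns, and of the pathway list 16 and 17 in the knockdowns. With limma on the authors' values, 209 genes were called in RBPMS KD1 and 784 in MBNL KD against D1, 1050 between the knockdowns, and 1 gene of the pathway list in each knockdown. The fit of 12 libraries called 7 pathway genes in MBNL KD. Among calls in the knockdowns, 65.4% were higher in RBPMS KD1 and 59.6% in MBNL KD, against 53.5% and 50.6% with quantile normalization and 50.2% and 49.5% with limma. Deviations of libraries with the same replicate number correlated between -0.020 and 0.040 across genes. With 3 libraries per group this does not settle whether those libraries shared a batch. With the replicate block 8 of the 10 were called in P against D1 and 0 in each knockdown, and all genes called there were 4593, 730 and 1634 instead of 4641, 745 and 1643; no call of the 10 changed. At this depth values of Npr1 in PAC1-D cells, Nos2, Nos3, Pde2a and Pde10a rest on few counts.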

Other observations

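Between the knockdowns themselves, 1 of 30 tested genes of the wider pathway list was called higher and 5 lower in RBPMS KD1 than in MBNL KD, where 11.9% of all genes were called; the 5 are named after their values were seen. Irag1 and Kcnmb1 were lower, at 133 to 135 against 273 to 283 CPM and at 1.41 to 1.53 against 4.67 to 5.57 CPM. Kcnma1, the pore subunit of the same potassium channel, had 7, 12 and 6 counts against 16, 19 and 20, Prkg2 had 14, 13 and 3 against 44, 41 and 54, and Nppb had 10, 10 and 12 against 38, 42 and 32. With limma on the authors' normalised values Irag1 (log2 fold change -1.05) and Kcnmb1 (-1.504) kept their calls, and Kcnma1 (-0.29), Prkg2 (-0.86) and Nppb (-0.65) did not.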
